A study of Mus musculus with 2 samples.

Results

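The interleukin-1 axis and the inflammasome were followed through 10 genes in CD11b-selected cells of the mouse cochlea. The genes were matched by symbol, and all 10 were found among the 48709 genes of the deposited tables. They are the ligands Il1a, Il1b, Il1f9 and Il18, the receptor antagonist Il1rn, the decoy receptor Il1r2, the co-receptor Il1rap, and the processing genes Nlrp3, Pycard and Casp1. Cells had at least 200 detected genes and at most 10% mitochondrial UMIs (unique molecular identifiers, which count single RNA molecules).

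Interleukin-1 alpha and interleukin-1 beta are cytokines that bind the same signalling receptor, and the co-receptor encoded by Il1rap completes that complex. The product of Il1rn occupies the receptor without signalling, and the product of Il1r2 binds the ligand without signalling. Interleukin-1 beta and interleukin-18 are made as precursors, and Casp1 encodes the protease that matures them. Casp1 protein is activated on the inflammasome, which is assembled from the sensor encoded by Nlrp3 and the adaptor encoded by Pycard. Transcript levels do not show whether the proteins were cut or released.

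The study held a single library from cochleae implanted with an electrode and a single library from cochleae without one, taken 33 days after implantation. Both came from CX3CR1+/GFP Thy1+/YFP mice of strain C57BL/6J/B6, with males and females pooled, so the controls carried both reporter alleles as well. The series title names dexamethasone-eluting and standard electrode arrays, and which of them the implanted library had is not given in the labels, nor is the number of animals. The design text speaks of contralateral cochleae, without saying that the non-implanted library came from them. After filtering and doublet removal, 3065 implanted and 3411 non-implanted cells remained, with medians of 4237 and 4150 UMIs and totals of 18424595 and 20374205 UMIs. The libraries had 6 cell barcodes in common. Ptprc, which all leukocytes express, had a UMI in 90.0% of implanted and 93.1% of non-implanted cells. Itgam, the gene of CD11b, was at 0 UMIs in either library, so the selection could not be checked on its own transcript.

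Levels are given as UMIs per 1e6 UMIs (CPM), summed over the cells of a class in each library, with exact Poisson 95% intervals where they are needed. With 1 library a group there was no replicate and no test, and every interval covers counting error only. A gene was called higher or lower where the CPM ratio was at least 1.5-fold, the exact interval of the ratio excluded 1, and the gene had at least 20 UMIs in both libraries together. The cells formed 18 clusters, and the 10 genes were left out of the clustering. By markers, 1455 implanted and 1698 non-implanted cells were neutrophil-like, 839 and 1062 granulocyte precursor-like, 313 and 268 monocyte-like, and 288 and 251 macrophage-like. Smaller clusters were erythroid-like (78 and 41 cells), B cell-like (40 and 32) and osteoclast-like (11 and 28).

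All 10 genes have a place on build GRCm38 in GENCODE M21, and 4 of them lie on chromosome 2. Il1a (ENSMUSG00000027399) spans chr2:129299610-129309972 and Il1b (ENSMUSG00000027398) spans chr2:129364570-129371139, both on the minus strand. Il1f9 (chr2:24186476-24193568) and Il1rn (chr2:24336853-24351494) lie on the plus strand of the same chromosome. Il1r2 is at chr1:40074079-40125231, Il1rap at chr16:26581704-26730117, Nlrp3 at chr11:59541568-59566956, Pycard at chr7:127989708-127993867, Casp1 at chr9:5298517-5307265 and Il18 at chr9:50554827-50581840.

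Promoter windows of 250 bases before to 50 bases after a gene start were taken from RefSeq (GRCm38.p6), which held at least 1 window for each of the 10 genes. A search of both strands covered 5 motifs: GGGNNNNNCC for NF-kB, TGANTCA for AP-1, GAGGAA for PU.1, TTNNGNAA for C/EBP and TATAAA for the TATA box. Windows are shown for Il1b and Nlrp3, whose levels followed each other most closely over the clusters, for Il1a, most of whose UMIs lay in macrophage-like cells, and for Il1rn, the member called higher in the implanted library in both monocyte-like and macrophage-like cells. Capitals mark every match to any of the 5 motifs, and adjoining or overlapping matches run together.
Il1b, chr2:129371090-129371389, minus strand: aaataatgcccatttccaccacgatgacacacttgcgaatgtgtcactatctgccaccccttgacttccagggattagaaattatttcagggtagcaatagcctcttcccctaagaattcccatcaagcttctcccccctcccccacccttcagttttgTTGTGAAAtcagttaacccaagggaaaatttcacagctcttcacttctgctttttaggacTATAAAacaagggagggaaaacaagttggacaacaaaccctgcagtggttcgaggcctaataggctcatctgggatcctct
Nlrp3, chr11:59542436-59542735, plus strand: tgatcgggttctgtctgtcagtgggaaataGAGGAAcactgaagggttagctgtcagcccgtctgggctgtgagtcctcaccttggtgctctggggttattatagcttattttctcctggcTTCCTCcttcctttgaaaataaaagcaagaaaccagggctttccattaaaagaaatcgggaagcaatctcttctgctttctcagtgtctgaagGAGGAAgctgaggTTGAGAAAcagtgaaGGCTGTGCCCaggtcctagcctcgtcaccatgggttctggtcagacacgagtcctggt
Il1a, chr2:129309923-129310222, minus strand: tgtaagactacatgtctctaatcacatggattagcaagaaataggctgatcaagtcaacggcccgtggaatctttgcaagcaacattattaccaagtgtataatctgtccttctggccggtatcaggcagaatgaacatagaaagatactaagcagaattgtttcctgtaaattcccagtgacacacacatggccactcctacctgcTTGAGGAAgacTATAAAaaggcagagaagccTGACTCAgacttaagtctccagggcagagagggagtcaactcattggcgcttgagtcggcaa
Il1rn, chr2:24345121-24345420, plus strand: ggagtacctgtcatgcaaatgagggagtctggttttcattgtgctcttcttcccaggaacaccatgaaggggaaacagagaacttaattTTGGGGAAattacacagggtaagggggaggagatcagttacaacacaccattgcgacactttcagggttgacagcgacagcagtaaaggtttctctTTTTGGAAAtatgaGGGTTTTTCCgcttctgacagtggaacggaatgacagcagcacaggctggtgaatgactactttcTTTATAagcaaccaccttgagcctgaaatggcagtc

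Counted from the first transcribed base as 0, the Il1b window held TATAAA at position -31 and the C/EBP letters TTGTGAAA at -91. The Il1a window held TATAAA at -32, the AP-1 letters TGACTCA at -12, and GAGGAA at -41 inside a C/EBP match. The Nlrp3 window, 1 of a pair for that gene, held 3 PU.1 matches and no TATAAA. The Il1rn window, the most downstream of 3, held GGGTTTTTCC at -51 and 3 C/EBP matches. Over all 32851 windows, 50.8% held the NF-kB letters, 40.7% the C/EBP letters, 28.3% GAGGAA, 13.6% TATAAA and 7.81% the AP-1 letters. A match is a description of the letters and not a site shown to be bound.

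Il1b, the gene of interleukin-1 beta, was a transcript of neutrophils, macrophages and monocytes in both libraries. Neutrophil-like cells had 3073 CPM in the implanted and 3098 CPM in the non-implanted library, macrophage-like cells 1747 and 1242, and monocyte-like cells 1151 and 847. The order of the 3 classes was the same in both libraries, and their intervals did not overlap within a library. It did not hold for single clusters. Macrophage-like cluster 7 had 2141 and 1100 CPM, and monocyte-like cluster 8 had 2049 and 1614 CPM. Monocyte-like cluster 10 had 191 and 200 CPM, and macrophage-like cluster 11 had 2307 and 2308 CPM. The class levels of macrophage-like and monocyte-like cells thus depend on their mixture of clusters. Neutrophil-like cells held 69.8% of all Il1b UMIs of the implanted library and 81.1% of those of the non-implanted library. Erythroid-like cells, which should lack the transcript, had 99.3 and 137 CPM and a share of cells with an Il1b UMI of 11.5% and 17.1%, at median depths of 7638.5 and 10666 UMIs. Granulocyte precursor-like cells, at 24.3 and 30.8 CPM, lay below that level, so their Il1b was not above background.

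**Figure D1:**
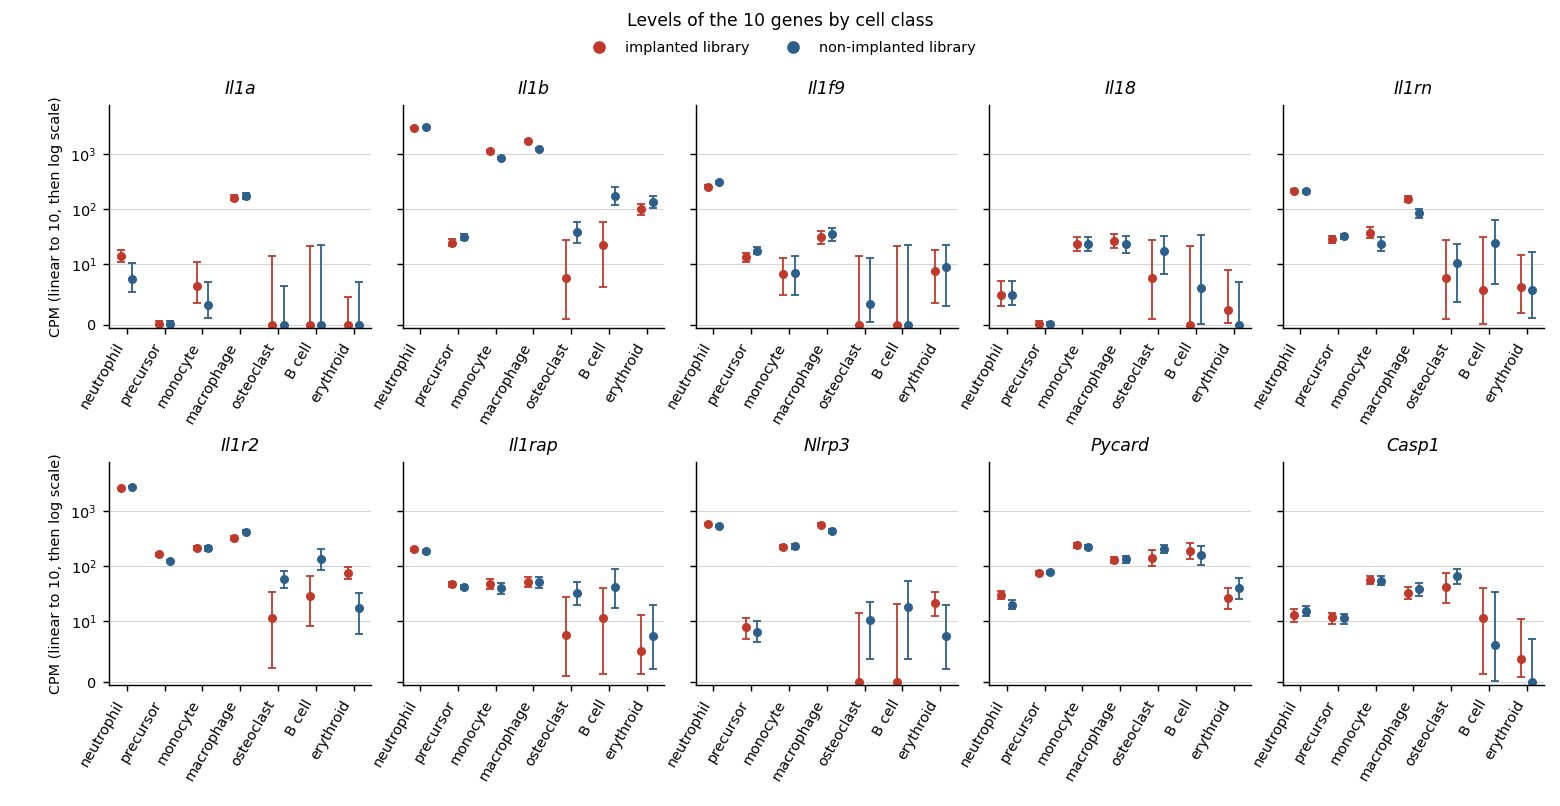
Level of each of the 10 genes in 7 cell classes, in CPM on an axis that is linear up to 10 and logarithmic above, with red points for the implanted and blue points for the non-implanted library and bars for exact Poisson 95% intervals. Il1b lay near 3073 and 3098 CPM in neutrophil-like cells, and Il1a stood out in macrophage-like cells at 162 and 175 CPM.

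Il1a, the gene of interleukin-1 alpha, was mostly a transcript of macrophage-like cells, above all of cluster 7. Macrophage-like cells had 162 CPM in the implanted and 175 CPM in the non-implanted library and held 77.9% and 83.4% of its UMIs, although they were 288 and 251 of the cells. Il1a was detected in 22.6% (17.9 to 27.8) and 13.5% (9.57 to 18.4) of them, and in 10.3% (6.71 to 14.9) and 6.10% (3.29 to 10.2) after thinning to 1000 UMIs per cell, which left out cells with fewer. Both pairs of intervals overlapped. Of the 299 and 256 macrophage-like UMIs, 238 and 251 lay in cluster 7, for which dendritic cell was the next type by markers. Cluster 17 held 60 and 3 of them and cluster 11 held 1 and 2. Cluster 17 had 62 implanted and 2 non-implanted cells, so the class shares compare different mixtures of clusters. Neutrophil-like cells had 14.1 and 7.57 CPM and monocyte-like cells 6.44 and 3.20 CPM. Of the 14 and 6 monocyte UMIs, 71.4% and 83.3% came from 1 cell in each library. Erythroid-like, B cell-like and osteoclast-like cells had 0 UMIs, and the exact upper bounds for erythroid-like cells were 4.64 and 7.04 CPM.

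Il1f9, which encodes the interleukin-36 gamma cytokine, was a neutrophil transcript. Neutrophil-like cells had 255 CPM in the implanted and 308 CPM in the non-implanted library and held 85.6% and 86.8% of its UMIs. Macrophage-like cells followed with 30.8 and 34.8 CPM. Il18, the gene of interleukin-18, was low everywhere: 23.4 and 23.5 CPM in monocyte-like, 26.5 and 23.2 in macrophage-like and 4.85 and 4.98 in neutrophil-like cells. The monocyte-like and macrophage-like intervals for Il18 overlapped in both libraries.

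Il1rn, the gene of the receptor antagonist, was highest in neutrophil-like cells, at 217 CPM in the implanted and 210 CPM in the non-implanted library. Macrophage-like cells had 154 and 84.0 CPM, monocyte-like cells 37.2 and 23.5, and granulocyte precursor-like cells 28.2 and 32.1. The last pair of classes did not differ beyond their intervals in either library. Il1rn is transcribed from several starts, and these 3' counts do not tell the secreted form of the antagonist from the intracellular forms.

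Il1r2, the gene of the decoy receptor, reached 2641 and 2811 CPM in neutrophil-like cells, which held 83.1% and 86.3% of its UMIs. Macrophage-like cells had 330 and 430 CPM, monocyte-like cells 216 and 214, and granulocyte precursor-like cells 165 and 125. S100a8, an abundant neutrophil transcript, was at 16814 and 25454 CPM in the macrophage-like and 15667 and 17428 CPM in the monocyte-like cells. Summed over the 11 neutrophil markers, all of them detected, the macrophage-like cells had 40241 CPM in the implanted and 56470 CPM in the non-implanted library, against 261449 and 261678 in neutrophil-like cells. The part of neutrophil RNA in the Il1r2 of macrophage-like and monocyte-like cells was not tested. For every 100 Il1r2 UMIs there were 116 and 110 Il1b UMIs in neutrophil-like cells, 530 and 289 in macrophage-like cells and 534 and 396 in monocyte-like cells. The clusters of these classes differed: there were 595 and 482 in macrophage-like cluster 7 and 788 and 715 in monocyte-like cluster 8. There were 170 and 111 in macrophage-like cluster 11 and 143 and 143 in monocyte-like cluster 14. Among neutrophil-like clusters there were 61.7 and 66.8 in cluster 2, 129 and 123 in cluster 3 and 174 and 135 in cluster 4. Clusters 5 and 12 had 46.8 and 66.8, and 96.7 and 128. Il1rap, the co-receptor gene, was at 206 and 189 CPM in neutrophil-like cells and between 40.1 and 52.5 CPM in the other 3 large classes.

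Of the processing genes, the sensor Nlrp3 was highest in neutrophil-like and macrophage-like cells, and the adaptor Pycard and the protease Casp1 were higher in monocyte-like than in neutrophil-like cells. Nlrp3 was at 595 and 538 CPM in neutrophil-like, 573 and 442 in macrophage-like, 224 and 230 in monocyte-like and 9.06 and 8.28 in granulocyte precursor-like cells. Neutrophil-like and macrophage-like cells of the implanted library did not differ in Nlrp3 beyond their intervals. Pycard was at 240 and 224 CPM in monocyte-like, 132 and 134 in macrophage-like, 76.4 and 77.2 in granulocyte precursor-like and only 29.9 and 19.9 in neutrophil-like cells. It was also at 192 and 159 CPM in B cell-like and 142 and 209 CPM in osteoclast-like cells. Casp1 was at 56.1 and 55 CPM in monocyte-like, 32.4 and 38.2 in macrophage-like, 12.9 and 15.3 in neutrophil-like and 42.1 and 66.1 in osteoclast-like cells. The class with the highest Il1b and Nlrp3 levels thus had the lowest Pycard level of the 4 large classes in both libraries.

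Within the neutrophil lineage, Il1b, Il1rn and Nlrp3 were highest in cluster 4 in both libraries, whereas Casp1 lay between 6.24 and 21 CPM in the 8 clusters. Il1b was at 26.6 and 22.6 CPM in cluster 1 (precursor-like, rich in Ltf and Ly6g), 602 and 889 in cluster 5 (Camp, Antxr2), 1221 and 1162 in cluster 2 (Retnlg, Mmp8), 5661 and 5335 in cluster 3 (Csf3r, Ifitm1) and 7031 and 6005 in cluster 4 (Acod1, Cxcl2). Cluster 12, led by interferon-induced genes, had 3840 and 3724 CPM. Both libraries gave the same order of these 6 clusters. Il1f9 followed another course: it was at 57.3 and 85.7 CPM in cluster 5 and between 343 and 400 CPM in clusters 2, 3 and 4, with intervals that overlapped among these 3 clusters in each library.

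Il1r2 was already at 238 and 168 CPM in cluster 1 and 1286 and 1331 in cluster 5, and at 4399 and 4322 in cluster 3. Nlrp3 was at 131 and 159 CPM in cluster 5, 675 and 632 in cluster 3 and 1509 and 1106 in cluster 4. Il1rn was at 212 and 199 CPM in cluster 3 and 507 and 382 CPM in cluster 4. Pycard was highest at the other end, with 121 and 113 CPM in cluster 9, the precursor-like cells with Elane and Prtn3, and was at 46.6 and 33.6 in cluster 5, 10.3 and 15.3 in cluster 3 and 25.4 and 18.3 in cluster 4.

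**Figure D2:**
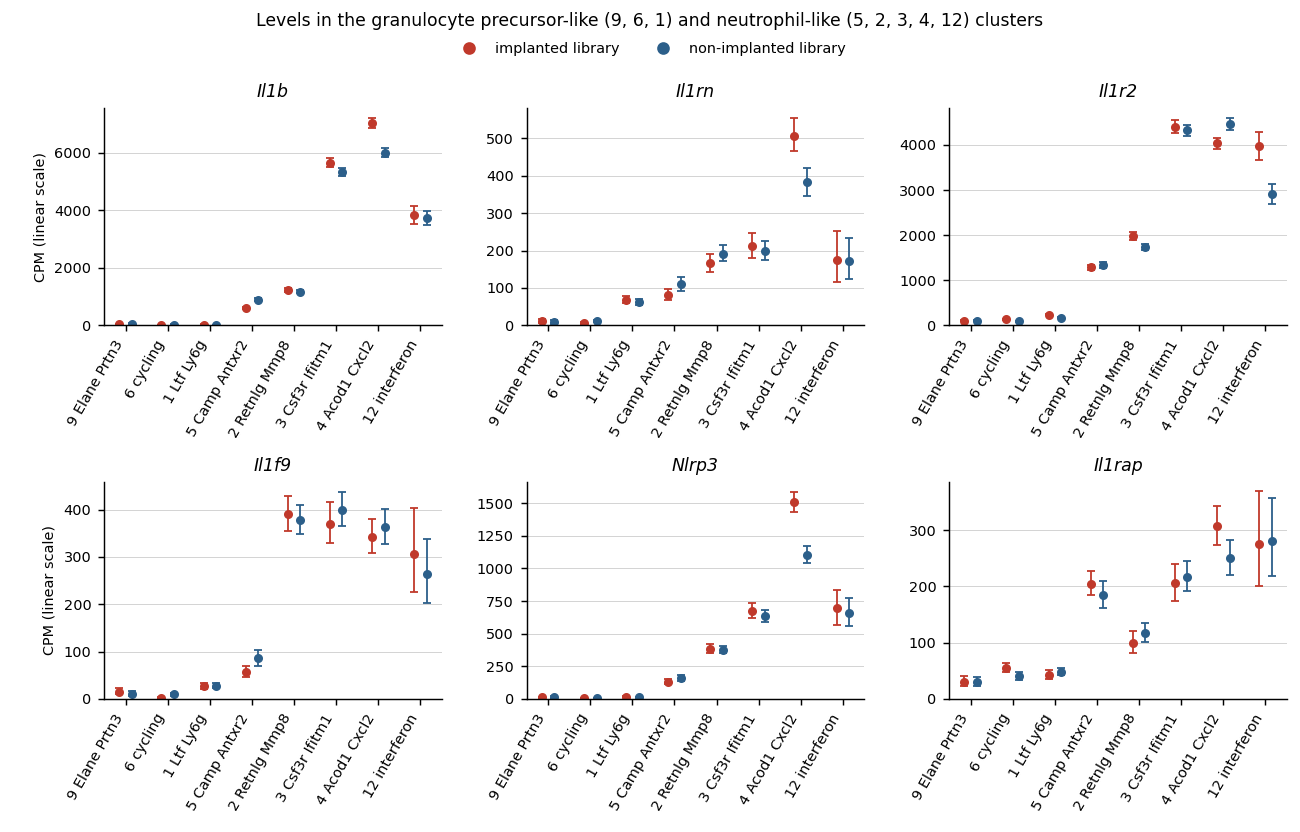
Levels of 6 genes in the granulocyte precursor-like (9, 6, 1) and neutrophil-like (5, 2, 3, 4, 12) clusters, in CPM on linear axes, with red points for the implanted and blue points for the non-implanted library and bars for exact Poisson 95% intervals. Il1b, Il1rn and Nlrp3 were highest in cluster 4 in both libraries, at 7031 and 6005 CPM for Il1b, while Il1f9 lay between 343 and 400 CPM in clusters 2, 3 and 4.

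The neutrophil-like cells of cluster 4, led by Acod1 and Cxcl2, numbered 374 and 350 cells. Their Nlrp3 ratio between the libraries was 1.36 (interval 1.26 to 1.47), their Il1rn ratio 1.33 (1.16 to 1.52) and their Il1b ratio 1.17 (1.13 to 1.21), none of which reached 1.5-fold.

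The same genes were then looked at cell by cell, after each cell was thinned to 1000 UMIs so that depth was equal. Cells with fewer UMIs were left out, which were 26 of 1455 implanted and 17 of 1698 non-implanted neutrophil-like cells and 55 of 288 and 38 of 251 macrophage-like cells. Among neutrophil-like cells of the implanted library, Nlrp3 was found in 48.0% of cells with an Il1b UMI and in 19.4% of cells without one. The shares in the non-implanted library were 43.5% and 21.6%. Il1rn was found in 23.4% against 11.4% of implanted and in 21.1% against 12.6% of non-implanted neutrophil-like cells. Among macrophage-like cells, Il1rn was found in 19.3% of implanted cells with and 7.26% without Il1b, and in 15.9% against 4.80% of non-implanted cells. The antagonist was thus found more often in neutrophil-like cells that also carried Il1b, in both libraries. The macrophage-like shares of Il1rn went the same way on fewer cells, and their intervals overlapped. Nlrp3 was found in 46.8% against 20.2% of implanted and 40.9% against 19.2% of non-implanted macrophage-like cells, and those intervals did not overlap. Il1r2, mostly a neutrophil transcript, was found in 32.1% against 8.06% of implanted and 35.2% against 8.80% of non-implanted macrophage-like cells. Those intervals did not overlap. In monocyte-like cells Nlrp3 was found in 32.8% against 17.2% (implanted) and 24.8% against 17.1% (non-implanted). Il1rn was found there in 2.99% against 1.72% and 3.96% against 1.83%. Of these, only the implanted Nlrp3 intervals did not overlap. Each class holds several clusters, and the parts of cluster membership and of neutrophil RNA in these shares were not tested.

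**Figure D3:**
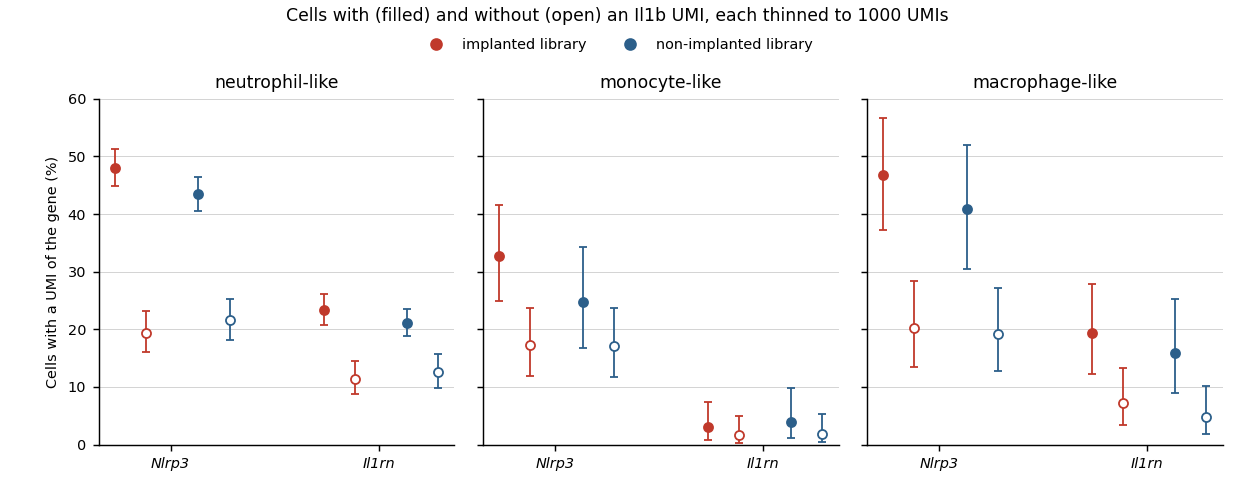
Percent of cells with a UMI of Nlrp3 or Il1rn, with exact Clopper-Pearson 95% intervals, among cells with (filled) and without (open) an Il1b UMI, after thinning to 1000 UMIs per cell, red for the implanted and blue for the non-implanted library. Among neutrophil-like cells Nlrp3 was in 48.0% against 19.4% and in 43.5% against 21.6% of cells.

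Across the 34 points given by clusters with at least 20 cells in a library, the 11039 genes with at least 100 UMIs were compared with each member by the Pearson correlation of log levels. The points share their library and their neutrophil RNA, so r is a description. Of all genes, Nlrp3 came closest to Il1b (r = 0.956), followed by Ptgs2 (0.940), Cxcl2 (0.930), Dusp1 (0.925) and Pim1 (0.925). Ptgs2 encodes the inducible cyclooxygenase and Cxcl2 a neutrophil chemokine. Il1rn was closest to Slc7a11 (0.940), a cystine transporter gene, then Clec4d, Adam8, Rab7 and Trpm2 (0.907 to 0.912). Il1r2 was closest to Ppp1r3d (0.948), Mxd1, Ppp1r3b, Cxcr2 and Csf3r (0.938 to 0.944), the last 2 being receptors of mature neutrophils.

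Of the other members, Il1f9 was closest to Ppp1r3d (0.963), Gm17619 and Stfa2l1, and Il1rap to Ets2 (0.932), Vps4b and Il1r2. Il1a had its nearest genes at lower r, 9430076C15Rik (0.846), Gdf15 and Srxn1. Il18 was closest to the macrophage genes Csf1r (0.894), Cd68 and Cst3, Pycard to Gdi2 (0.928), Tmem160 and Dbi, Casp1 to Plod3 (0.906), Glud1 and Naaa, and Nlrp3 to Il1b, Dusp1 and Slc15a3.

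The comparison of the implanted with the non-implanted library asked whether the pathway differed 33 days after an electrode was placed. In neutrophil-like cells 2 of 10 members were called higher and 0 lower, where 4.16% of all genes were higher and 2.22% lower. In granulocyte precursor-like cells 8 members had enough UMIs, and 0 were called higher or lower, against 4.29% and 1.43% of all genes. In monocyte-like cells 1 of 10 was higher and 0 lower, against 2.45% and 2.51%. In macrophage-like cells 1 of 10 was higher and 0 lower, against 8.01% and 8.10%. The members' median log2 ratio was 0.02, 0.01, 0.06 and 0.00 in these classes in that order, and that of all genes 0.01, 0.05, 0.00 and -0.02. No member was called lower in any of the 4 classes as a whole, but single clusters of these classes differed. In granulocyte precursor-like cluster 6, Il1f9 (ratio 0.221, 0.0892 to 0.480) and Il1rn (0.514, 0.290 to 0.883) were called lower. Il1r2 was called higher there (1.55, 1.35 to 1.78). Il1b was called lower in precursor-like cluster 9 (0.576), Il1r2 in macrophage-like cluster 11 (0.650) and Nlrp3 in monocyte-like cluster 14 (0.408). The Il1b of cluster 9 rested on 54 and 114 UMIs, in a class whose Il1b was not above background. The share of all genes called was not counted in clusters 6, 9, 11 and 14, and the part of background RNA in these calls was not tested.

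**Figure D4:**
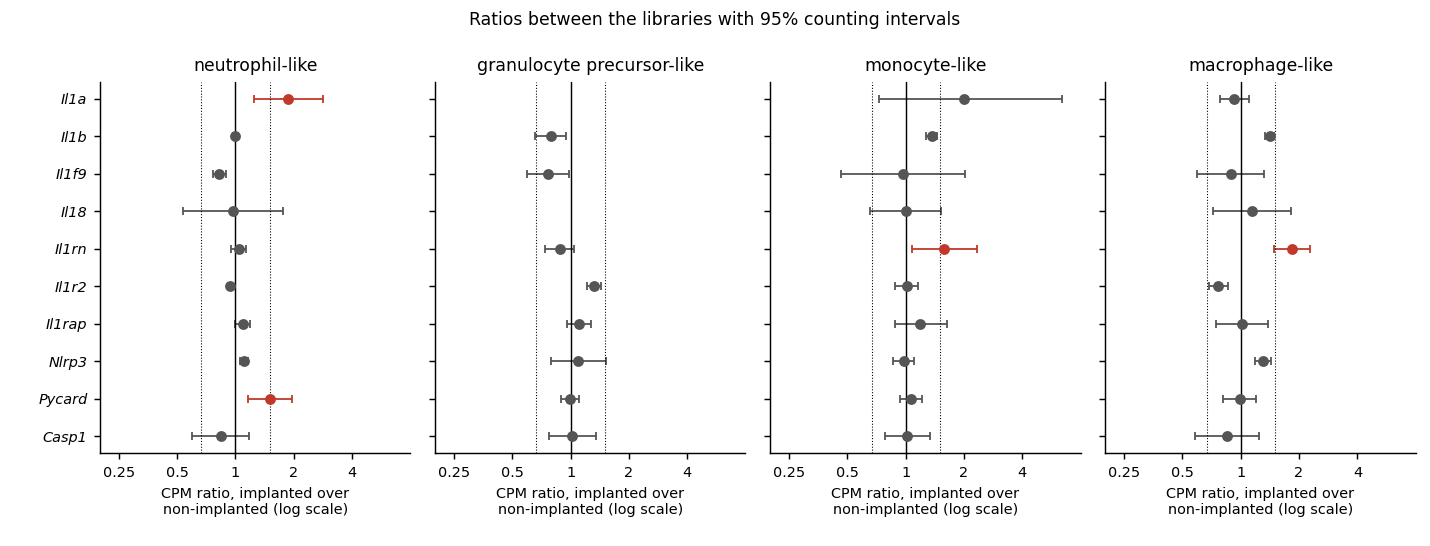
CPM ratio of the implanted over the non-implanted library for each gene with at least 20 UMIs, on a log axis, in 4 classes, with exact 95% counting intervals; red marks called genes, the solid line is 1 and the dotted lines are 1.5-fold either way. The called genes were Il1a (1.87) and Pycard (1.5) in neutrophil-like cells and Il1rn in monocyte-like (1.58) and macrophage-like cells (1.83).

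Il1b itself was level over the neutrophil-like class as a whole, with a ratio of 0.992 (0.970 to 1.01), which rests on 14571 and 16783 UMIs. Its clusters differed: the ratio was 0.677 (0.621 to 0.738) in cluster 5 and 1.17 (1.13 to 1.21) in cluster 4. Under the alternatives the class log2 ratio ran from -0.18 to 0.17. Il1a in neutrophil-like cells was higher in the implanted library, at 14.1 against 7.57 CPM, a ratio of 1.87 (1.25 to 2.82) from 67 and 41 UMIs. Most of these UMIs lay in cluster 4, with 60.5 against 26.9 CPM (2.25, 1.42 to 3.65), from 27 and 19 cells. Il1a was the 1 called member of 9 in cluster 4, where 3.57% of all genes were higher and 3.98% lower. With each cell thinned to 1000 UMIs, Il1a was in 0.910% and 0.952% of neutrophil-like cells and its log2 ratio was 0.04, so the call was lost. Pycard was at 29.9 against 19.9 CPM, a ratio at the threshold of 1.5 (1.16 to 1.95). Erythroid-like cells had 26.4 (16.3 to 40.3) and 40.1 (24.8 to 61.2) CPM of Pycard. Neutrophil-like cells did not differ from that level beyond counting error in the implanted library and lay below it in the non-implanted library. In the neutrophil-like class, cluster 5, which was rich in Camp and had more Pycard than clusters 2, 3 and 4, made up 364 of 1455 implanted and 261 of 1698 non-implanted cells. Camp was at 12624 and 8177 CPM in the class. Within the single clusters 2 to 5 no Pycard ratio was called, and they ran from 0.672 to 1.71.

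In macrophage-like cells, Il1rn was higher in the implanted library, at 154 against 84.0 CPM, a ratio of 1.83 (1.48 to 2.29) from 285 and 123 UMIs. Part of this came from cluster 17, a macrophage-like cluster led by Spp1, Mmp12 and Gpnmb that held 62 implanted and 2 non-implanted cells and had 224 CPM of Il1rn in the implanted library. Without cluster 17 the ratio was 1.43 (1.10 to 1.85), which is not called. In cluster 7, macrophage-like cells with MHC class II and C1q genes, Il1rn was at 103 against 70.2 CPM (1.47, 1.10 to 1.97). S100a8 was lower in the implanted macrophage-like cells, at 16814 against 25454 CPM, and without the cells that had over 1% of their UMIs from S100a8 the Il1rn ratio was 2.00 (1.53 to 2.64).

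Il1b in macrophage-like cells had a ratio of 1.41 (1.33 to 1.49) and was not called. The clusters of the class differed: in cluster 7 Il1b was at 2141 CPM in the implanted and 1100 CPM in the non-implanted library, a ratio of 1.95 (1.82 to 2.08), while in cluster 11 it was at 2307 and 2308 CPM. Cluster 11 was made of shallow cells in which the 11 neutrophil markers summed to 136637 and 120798 CPM, against 42143 and 39166 CPM for the 21 macrophage markers, and the part of neutrophil RNA in its Il1b was not tested. Cluster 17 had 1029 CPM in the implanted library. In cluster 7 the single cell with the most Il1b held 8.22% and 12.3% of the UMIs, and without these cells the ratio was 2.04 (1.90 to 2.19). S100a8 in cluster 7 was at 15597 against 22468 CPM, and without the cells over 1% S100a8 the Il1b ratio was 1.80 (1.66 to 1.94). The 11 neutrophil markers, each detected, summed to 35933 and 48752 CPM there. After thinning, Il1b was found in 51.2% (42.2 to 60.1) and 37.8% (30.4 to 45.7) of the cells of cluster 7, and these intervals overlapped. With each library clustered on its own, the ratio for all macrophage-like cells was 1.11 (1.04 to 1.18). Il1b and Il1r2 were the 2 called members of 10 in cluster 7, where 5.51% of all genes were higher and 4.49% lower.

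Other members differed less in cluster 7. Nlrp3 was at 658 against 448 CPM (1.47, 1.31 to 1.64), but at 575 against 501 without the cells over 1% S100a8 (1.15, 1.01 to 1.31). Il1a was at 234 against 194 CPM (1.21, 1.01 to 1.45). Casp1 was at 26.6 against 39.3 CPM (0.675, 0.407 to 1.10), and Pycard at 110 against 132 CPM (0.835, 0.652 to 1.07). Il1r2 was called higher, at 360 against 228 CPM (1.58, 1.35 to 1.84), and was at 118 and 76.0 CPM without the cells over 1% S100a8.

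**Figure D5:**
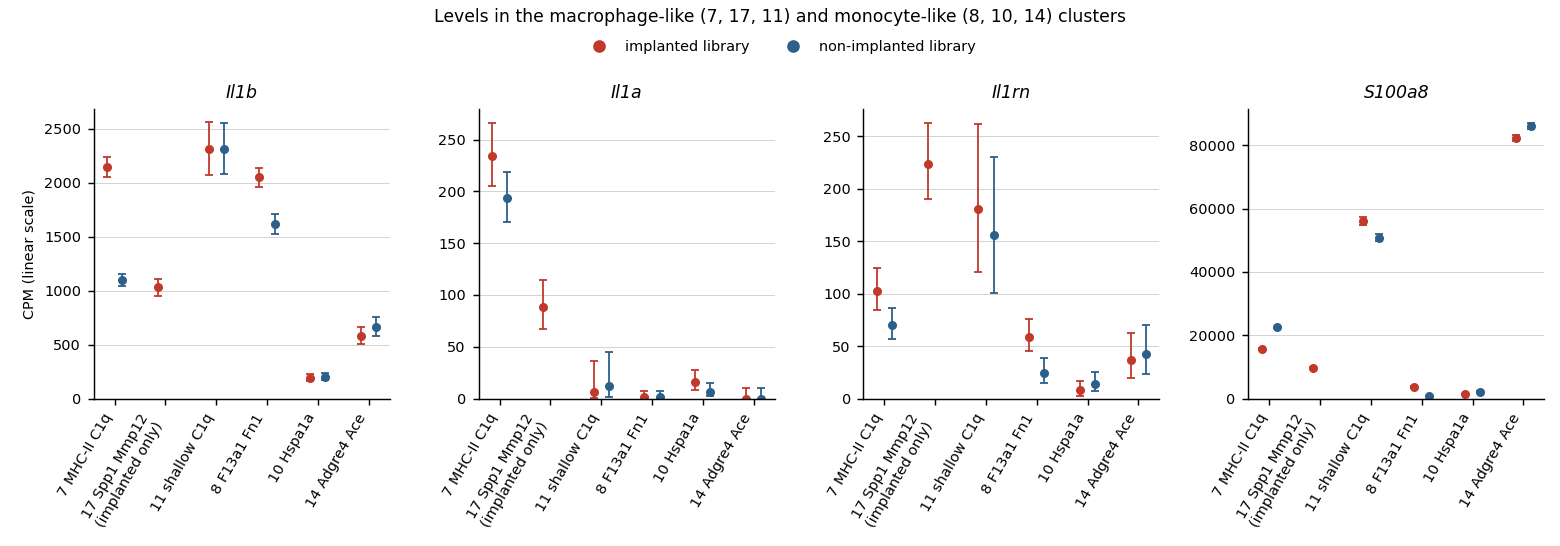
Levels of Il1b, Il1a, Il1rn and the neutrophil transcript S100a8 in the macrophage-like (7, 17, 11) and monocyte-like (8, 10, 14) clusters, in CPM on linear axes, with red points for the implanted and blue points for the non-implanted library, bars for exact Poisson 95% intervals, and no point where a library had under 20 cells. In cluster 7 Il1b was at 2141 CPM in the implanted and 1100 CPM in the non-implanted library, and S100a8 at 15597 and 22468 CPM.

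In monocyte-like cells, Il1rn was at 37.2 against 23.5 CPM, a ratio of 1.58 (1.08 to 2.34) from 81 and 44 UMIs. The difference lay in cluster 8, monocyte-like cells with F13a1 and Fn1, where Il1rn was at 59.1 against 24.3 CPM (2.43, 1.42 to 4.36). S100a8 differed there in the same direction, at 3709 against 814 CPM, and the 11 neutrophil markers summed to 9484 and 2619 CPM. Without the cells over 1% S100a8, S100a8 in cluster 8 was at 611 and 603 CPM and Il1rn at 58.6 and 23.3 CPM (2.51, 1.44 to 4.60). With every cell thinned to 1000 UMIs, the class-wide log2 ratio of Il1rn was -0.02, on 2.27% and 2.64% of the cells. Il1rap was also called higher in cluster 8, at 65.7 against 36.5 CPM (1.80, 1.14 to 2.92). These were 2 of 8 members with enough UMIs in cluster 8, where 3.52% of all genes were higher and 2.71% lower. Il1b was at 2049 against 1614 CPM (1.27, 1.18 to 1.36) in cluster 8, and at 191 and 200 CPM in cluster 10, monocyte-like cells rich in Hspa1a, where it did not differ beyond counting error.

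A wider list of 54 genes of the interleukin-1 family, its receptors, signalling and inflammasomes placed these members in their pathway. Of these, 52 are in the tables, and between 37 and 39 had enough UMIs in each class. In neutrophil-like cells 2 were called higher and 0 lower, in granulocyte precursor-like cells 3 and 0, in monocyte-like cells 1 and 3, and in macrophage-like cells 1 and 6. As shares of the listed genes with enough UMIs, 5.41% were higher in neutrophil-like cells against 4.16% of all genes, and 7.89% in granulocyte precursor-like cells against 4.29%. In monocyte-like cells 2.70% were higher and 8.11% lower, against 2.45% and 2.51% of all genes, and in macrophage-like cells 2.56% were higher and 15.4% lower, against 8.01% and 8.10%. Most calls outside macrophages were of Elane, Prtn3 and Ctsg, granule proteases that can cut interleukin-1 precursors outside the cell. In granulocyte precursor-like cells Elane was at 1463 against 894 CPM (1.64), Prtn3 at 1150 against 642 (1.79) and Ctsg at 132 against 47.2 (2.80). Elane (1.83) and Prtn3 (2.06) also passed the call rule in neutrophil-like cells, at 5.54 to 11.4 CPM, where macrophage-like cells had 5.46 to 15.0 CPM and the part of background RNA was not tested. All 3 were lower in monocyte-like cells (0.490 to 0.578). Camp, another granulocyte precursor marker, was at 4485 against 5741 CPM there, and the part of precursor RNA was not tested.

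Il1r1, the signalling receptor that joins with the Il1rap product, was sparse in these cells, with 16.1 against 8.55 CPM in monocyte-like (1.88, 1.02 to 3.64) and 8.65 against 4.78 CPM in macrophage-like cells. Myd88, the adaptor of that receptor, had 0 UMIs in both libraries, and its level is not interpreted. In macrophage-like cells the gene called higher was Ninj1, at 355 against 149 CPM (2.38, 2.04 to 2.79), which encodes the protein that ruptures the plasma membrane in lytic cell death. The genes called lower were Nlrp1a (0.412), Nlrp1b (0.554), Pydc4 (0.523), Serpinb1a (0.544), Txnip (0.633) and Il18rap (0.642). Nlrp1a and Nlrp1b encode other inflammasome sensors, and Nlrp1b was at 79.5 against 143 CPM. Without cluster 17, which is nearly absent from the non-implanted library, Ninj1 was at 225 against 144 CPM (1.56, 1.29 to 1.88) and Serpinb1a at 54.7 against 89.9 CPM (0.608, 0.444 to 0.826), and both kept their calls. The other 5 were then no longer called, with ratios of 0.547 to 0.841. Cluster 17 had 580 CPM of Ninj1 and 29.5 CPM of Nlrp1b in the implanted library. Serpinb1a, an inhibitor of neutrophil proteases, was at 48.7 against 89.5 CPM beside the lower S100a8 in the implanted macrophage-like cells, and the part of neutrophil RNA in it was not tested.

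Among the other abundant genes of the list, Irak2, Nlrc4, Pstpip1 and Tab2, none was called in any of the 4 classes. Irak2, a kinase-family adaptor of interleukin-1 signalling, was at 449 and 379 CPM in neutrophil-like, 498 and 404 in monocyte-like and 357 and 293 in macrophage-like cells, with ratios of 1.18 to 1.23. Nlrc4, the sensor of another inflammasome, was at 69.6 and 88.6 CPM in neutrophil-like and 118 and 160 CPM in monocyte-like cells. Pstpip1, which binds the inflammasome protein pyrin, was at 166 and 185 CPM in neutrophil-like cells, and Tab2, which carries the signal downstream, at 113 and 118 CPM.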

How the data were processed

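Single-cell RNA was measured in 2 libraries, 1 implanted and 1 non-implanted. The deposited matrices hold whole-number UMI counts per gene and barcode, without normalization. Per the file headers, Cell Ranger 3.0.1 made them. The submitters' processing notes name Seurat and the builds mm10 and GRCm38. The annotation release is not given in the sources used here. Per the series design text, cochleae were dissociated with accutase and CD11b-positive cells were held on a magnetic column. The extraction text in the labels describes another tissue and was not used.

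Barcodes with at least 200 genes and at most 10% mitochondrial UMIs were kept (3149 of 3231 implanted, 3513 of 3572 non-implanted), and the highest Scrublet scores, 84 and 102 cells, were removed as doublets, at 0.8% per 1000 barcodes. Counts were normalized per cell and log-transformed, reduced to 2000 variable genes without the 10 members and to 30 principal components, joined to 15 neighbours, and clustered by Leiden at resolution 1. Clusters were named from marker lists, hence the ending "-like". CPM carry exact Poisson, ratios exact conditional and shares Clopper-Pearson 95% intervals. These treat UMIs as independent, ignore variation among cells, and are too narrow for genes concentrated in a few cells. The log2 ratio is that of CPM plus 5. The call rule was tried on simulated Poisson counts with known changes, which share the intervals' assumption of independent UMIs. It was not tried on counts concentrated in a few cells.

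The members and lists were chosen with earlier results of these data known. All members were named; of the wider list, genes called in any class and up to 10 with the most UMIs; of similar patterns, the nearest 5 for Il1b, Il1rn and Il1r2 and 3 for the others. All 10 members matched GENCODE M21 identifiers without the version. Alternatives varied the cell filter, doublets, resolution, separate clustering, cell weighting, thinning, pseudocount, scaling, the UMI minimum, the top cell and single clusters. Python 3.11.15, scanpy 1.11.5, leidenalg 0.10.2, scikit-learn 1.9.0, scipy 1.17.1, numpy 2.4.6, pandas 2.3.3 and matplotlib 3.10.9 were used.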

Additional observations from a re-analysis of the deposited data

How the results depend on the processing

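With 1 library a group, no left-out replicate and no paired analysis was possible, because each group had a single library and no replicate numbers to pair. Of 544 single values, from 38 results under up to 16 alternatives each, 473 lay inside the counting interval of the value reported and 62 had the opposite sign, of which 1 was of a called value. The median log2 ratio of the members in neutrophil-like cells moved from 0.02 to -0.10 with each library clustered separately, and under the alternatives run the other class medians stayed inside the median bounds of the members' intervals. Il1rn in monocyte-like cells was -0.02 with cells thinned to 1000 UMIs, against 0.57. The causes were not tested. The call of Il1rn in macrophage-like cells was kept in 10 of 11 alternatives that recount UMIs and lost without the cluster led by Spp1, Mmp12 and Gpnmb (log2 0.49), and that of Il1rn in monocyte-like cells was kept in 8 of 10. Il1a in neutrophil-like cells kept its call in 7 of 8, but Pycard in 2 of 8, with a log2 ratio of 0.21 at resolution 2. Il1b in macrophage-like cells ranged from 0.14, with separate clustering, to 0.81, without the Spp1 cluster, and was called in 2 of 11. Il1r2 in macrophage-like cells ranged from -0.89 to 0.18. Thinning moved Il1a in macrophage-like cells from -0.11 to 0.66, Il18 from 0.16 to 1.10, Casp1 from -0.21 to 0.56 and Il1rap from 0.01 to -0.78. It moved Il1a in monocyte-like cells from 0.48 to -0.13. Few cells kept a UMI: 24 and 13 macrophage-like cells for Il1a, 5 and 2 for Il18, 6 and 4 for Casp1. There were 11 and 14 for Il1rap, and 2 and 1 monocyte-like cells for Il1a. Separate clustering moved Il1b in granulocyte precursor-like cells from -0.29 to 0.50, Il1f9 there from -0.29 to -0.88 and Il1r2 in monocyte-like cells from 0.01 to 0.70. Nlrp3 in granulocyte precursor-like cells moved from 0.08 to 0.69 with all barcodes kept, and Il1f9 in monocyte-like cells from -0.03 to 0.85 without cluster 14. Leaving out cells by S100a8, leaving out cluster 11 or 14, and keeping the members among the variable genes were chosen after seeing the data. Il1f9 in monocyte-like cells was called higher in 1 and lower in 1 of 10 alternatives. Il1a and Il18 in granulocyte precursor-like cells had 1 to 2 UMIs a library, so a difference was not detectable at this depth.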

Other observations

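The unnamed cluster, a mixture led by Ptgds, Pf4, Prss34, Dct and Col1a1, held 41 implanted and 31 non-implanted cells and was left out of the comparison of classes. Its Il1b was at 628 CPM in the implanted and 327 CPM in the non-implanted library, and its Nlrp3 at 187 and 85.4 CPM. Its S100a8 went the other way, at 15303 against 54877 CPM. In the monocyte-like cluster 14, led by Adgre4 and Ace, Nlrp3 was at 70.6 against 173 CPM (ratio 0.408, 0.245 to 0.659), with S100a8 at 84142 CPM over both libraries together, well above the monocyte-like cells of clusters 8 and 10. The naming of cluster 14 was close, with a marker score of 4.40 for monocyte and 4.32 for granulocyte precursor. Its 11 neutrophil markers summed to 170516 and 178661 CPM, its 13 precursor markers to 66764 and 74393, and its 16 monocyte markers to 12788 and 12579. The part of neutrophil and precursor RNA in its Nlrp3 ratio was not tested.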
